A study of Mus musculus with 12 samples.

Results

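The genes described here copy the genome. They are 38 mouse genes of DNA replication and the S phase, chosen by name and matched by gene symbol to 38 of the 56953 gene rows of the count table. The choice was made with earlier results of these data known. The counts of these genes set beside the shares of all genes are therefore no independent evidence. By role, 5 license origins, 11 make up or load the replicative helicase, 9 are polymerase subunits, the sliding clamp and its loader, and 2 finish the lagging strand. A further 5 supply or guard the nucleotide pool, 3 copy chromatin and DNA methylation behind the fork, and 3 control entry into S phase.

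Before a cell divides, origins are licensed in G1, when ORC, CDC6 and CDT1 load the MCM2-7 ring onto DNA. Cyclin E-CDK2 and the kinase CDC7 then fire them by adding CDC45 and the GINS complex to the ring. Most of these genes are transcribed in a burst at the G1/S border under E2F factors, so that resting cells hold little of their mRNA. In the bone marrow, precursors divide actively, Ly6Chi monocytes have recently left the cycle, and Ly6Clo monocytes and resident macrophages are mostly resting cells. Macrophages of this tissue also sit in the islands where red cell precursors mature and divide.

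Polyadenylated RNA was measured in 12 libraries of myeloid cells sorted from the bone marrow of 8-week-old female C57BL/6J mice, 3 libraries in each of 4 groups. Macrophages positive for F4/80, CD206 and VCAM1 were split by eYFP in Rank cre/+;R26.eYFP fl/+ animals, in which Cre made from the Rank locus turns on eYFP for good. eYFP+ macrophages (labelled embTRMp) descend from embryonic progenitors that expressed Rank, and eYFP- macrophages (labelled adTRMp) are the cells assigned to haematopoietic stem cells. An embryonic cell that failed to recombine would fall in the eYFP- gate. The other groups are Ly6Chi and Ly6Clo monocytes, sorted as CD11b+ cells by their Ly6C level, and the labels name no drug or stimulus in any group. Nothing states that same-numbered libraries came from the same animal or that the 3 libraries of a group came from different animals, so the p-values measure the spread between these libraries. The libraries held 26390927 to 48618187 counts. Macrophage markers separated the groups as labelled, with *Vcam1* at 537841 to 1078619 normalised counts in macrophages and 1030 to 6515.5 in monocytes. *Ly6c2* stood at 99157 to 118762 in Ly6Chi monocytes and 581.5 to 1240 in Ly6Clo monocytes. Ly6Clo replicate 2 stood apart, with 16434 genes detected against 21330 to 27634 in the other libraries, and held no count of *Mcm10*, *Pole* and *Uhrf1*.

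The eYFP- macrophages carried the highest summed level of the replication genes, and the eYFP+ macrophages lay nearer to the monocytes than to the eYFP- macrophages. The TPM, a level scaled for gene length and library size, summed over the 38 genes to 1922, 1274 and 1446 in replicates 1, 2 and 3 of the eYFP- macrophages. The sum was 782, 588 and 607 in the eYFP+ macrophages. It was 598.5, 568 and 504 in Ly6Chi monocytes and 546.5, 615 and 552 in Ly6Clo monocytes. No eYFP- library overlapped any other library in this sum, and its mean was 2.35 times that of the eYFP+ macrophages. In all groups the genes took a small part of the library, 0.185 to 0.289% of counts in eYFP- macrophages and 0.0793 to 0.108% in the other 9 libraries. In sorted bulk samples, fewer cycling cells, less RNA per cycling cell and less RNA from other dividing cells in the sort cannot be told apart.

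**Figure D1:**
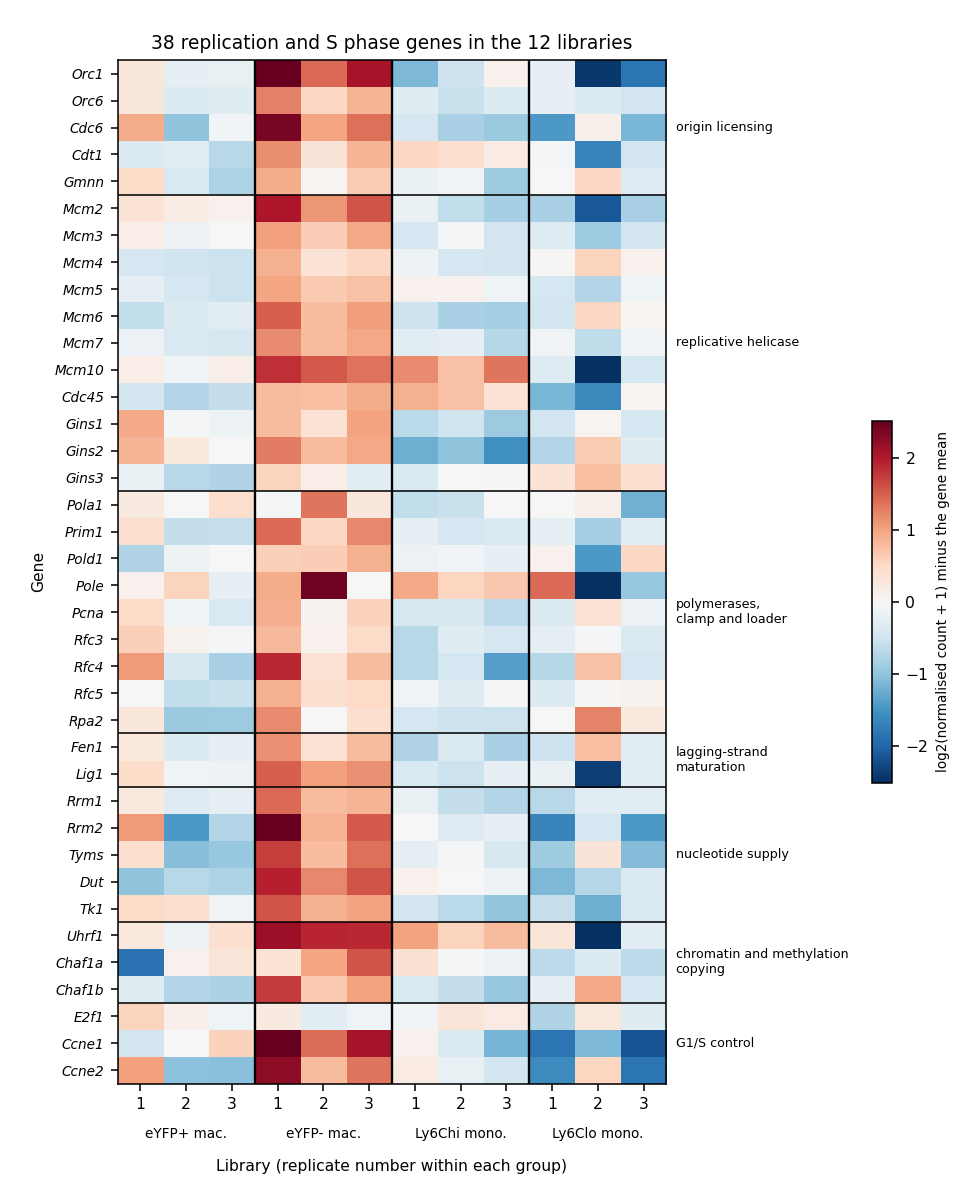
Each row is 1 of the 38 genes, grouped by role, and each column 1 of the 12 libraries. Colour is log2(normalised count + 1) minus the gene's mean over all libraries, cut at 2.5 in either direction. The 3 eYFP- macrophage columns are red for nearly every gene, and 36 of 38 genes had their highest group mean there. Dark blue cells in Ly6Clo replicate 2 mark *Mcm10*, *Pole* and *Uhrf1*, with no count, and other low genes of that library.

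Of the 38 genes, 36 had their highest group mean in eYFP- macrophages. The exceptions were *E2f1*, highest in eYFP+ macrophages, and *Gins3*, highest in Ly6Clo monocytes. For 19 of 38, all 3 eYFP- libraries lay above the other 9 libraries, an arrangement found for 3.11% of the 21567 genes with an adjusted p. In eYFP+ against eYFP- macrophages, DESeq2 called 15 of 38 genes lower and 0 higher at an adjusted p under 0.05, where 1.88% of all tested genes were called lower. The median log2 fold change of the 38 genes was -1.17, against 0.05 over all tested genes, and 37 of 38 values were negative. All 3 eYFP+ libraries lay below all 3 eYFP- libraries for 25 of 38 genes, against 8.50% of the genes with an adjusted p.

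The number of calls depended on the tool and on single libraries, while the direction did not. With edgeR's quasi-likelihood test 2 of 38 genes, *Dut* and *Mcm6*, were lower, against 0.328% of all genes it tested. By that test 27 of 38 had an unadjusted p under 0.05, against 7.42% of all genes. On simulated counts, DESeq2's calls included many unchanged genes, while edgeR called no unchanged gene but recovered fewer of the changed ones. A gene called by DESeq2 alone may therefore be a false call. DESeq2 called 4 genes without eYFP- replicate 1, 7 without eYFP- replicate 3, 6 without eYFP+ replicate 2 and 5 without eYFP+ replicate 3. It called 9 without Ly6Chi replicate 2 and 24 without Ly6Clo replicate 2, libraries of neither macrophage group that enter through the fit of all 12. *Dut* was called in each of the 26 alternative analyses.

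**Figure D2:**
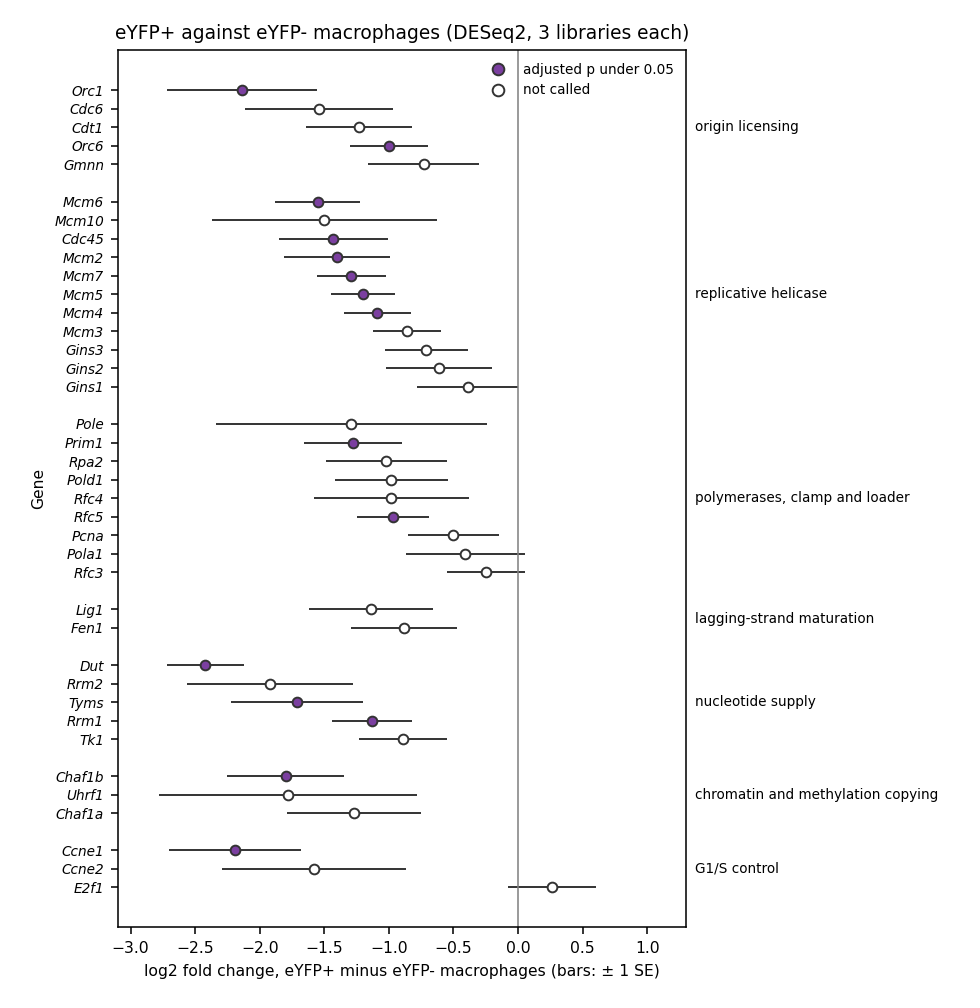
Log2 fold change of each of the 38 genes in eYFP+ minus eYFP- macrophages (DESeq2, 3 libraries a group), by role, with bars of 1 SE either side. The 15 filled points have an adjusted p under 0.05. *Dut* lies farthest left at -2.42 and *E2f1* alone lies right of 0, at 0.26.

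Letters of the E2F motif can be read in the promoters of some of these genes. The stretches below are shown because they hold the letters an E2F factor binds, ahead of genes that were called lower in eYFP+ macrophages (*Mcm5*, *Mcm6*, *Orc1*) and ahead of genes that were not (*Cdc6*, *Gins3*, *Pola1*, *Uhrf1*). They are RefSeq sequence of build GRCm38.p6, read 5′ to 3′ along the gene's strand, with the E2F letters in capitals and all of each stretch upstream of the start.
Mcm5 promoter: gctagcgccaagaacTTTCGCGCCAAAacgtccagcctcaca
Mcm6 promoter: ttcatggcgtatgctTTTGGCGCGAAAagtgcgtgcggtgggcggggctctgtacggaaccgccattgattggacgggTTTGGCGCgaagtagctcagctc
Orc1 promoter: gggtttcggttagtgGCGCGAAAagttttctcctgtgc
Cdc6 promoter: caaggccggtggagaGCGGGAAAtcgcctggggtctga
Gins3 promoter: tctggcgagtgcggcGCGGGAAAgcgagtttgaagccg
Pola1 promoter: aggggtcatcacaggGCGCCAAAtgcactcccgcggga
Uhrf1 promoter: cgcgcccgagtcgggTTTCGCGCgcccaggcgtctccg
The *Mcm5* stretch is chr8:75109341-75109382 on the plus strand, and the *Mcm6* stretch, with 3 matches, is chr1:128359730-128359830 on the minus strand. *Orc1* is read from chr4:108579412-108579449, *Cdc6* from chr11:98907998-98908035, *Gins3* from chr8:95633503-95633540 and *Uhrf1* from chr17:56304113-56304150, all on the plus strand. The *Pola1* stretch is chrX:93632271-93632308 on the minus strand. In *Mcm5* and *Mcm6* a match on one strand overlaps a match on the other, giving 12 letters in capitals in a row.

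A search of the RefSeq windows from 250 bases before to 50 bases after the start covered 32 of the 38 genes. Windows were not at hand for *Mcm4*, *Gmnn*, *Ccne2*, *Gins1*, *Gins2* and *Pole*. The E2F letters TTTCCCGC, TTTCGCGC, TTTGCCGC or TTTGGCGC, on either strand and with overlapping matches counted, lay in a window of 13 of the 32 genes, 40.6%, against 2.6% of 27025 genes with a window. The CCAAT letters lay in a window of 59.4% of these 32 genes against 41.1% of all genes, and the CHR letters TTTGAA, a mark of mitotic genes, in 12.5% against 20.2%. By role, 5 of 8 helicase genes and 3 of 4 licensing genes with a window held the E2F letters, and 0 of 5 nucleotide genes. The windows of these genes had a median GC content of 60.0% against 52.7% for all genes, and its part in these shares was not tested. Of the genes called lower in eYFP+ macrophages, *Mcm5*, *Mcm6*, *Mcm7* and *Orc1* held the E2F letters. The others called there with a window, *Dut* and *Tyms* among them, held none. Of the genes not called, *Cdc6*, *Cdt1*, *Gins3*, *Lig1*, *Mcm3*, *Pola1*, *Pold1*, *Rfc3* and *Uhrf1* held the letters, and the others with a window held none. Only these exact letters were searched, so a window without them may hold an E2F site of other letters. A match describes the letters of the window and not the binding of a factor.

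**Figure D3:**
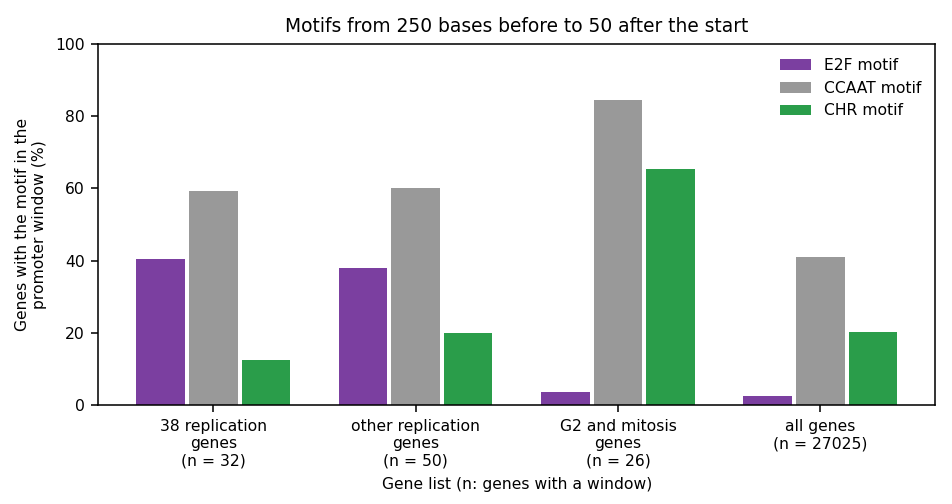
Share of genes, in percent, with E2F, CCAAT or CHR letters in the promoter window, for the 38 genes (32 with a window), the other replication genes (50), the G2 and mitosis genes (26) and all genes of the RefSeq table (27025). The E2F bar stands at 40.6% for the 38 genes and 2.6% for all genes, and the CHR bar is tallest for the mitosis genes at 65.4%.

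All 5 origin licensing genes had their highest group mean in eYFP- macrophages, and 2 of 5 were lower in eYFP+ macrophages by DESeq2 and 0 by edgeR, where 4 had an unadjusted p under 0.05. *Orc1*, the largest subunit of the origin recognition complex, stood at 602.5, 257 and 403 normalised counts in replicates 1, 2 and 3 of the eYFP- macrophages. Its eYFP+ values were 118, 83.0 and 85.1, with 43.5, 66.8 and 103 in Ly6Chi and 84.0, 17.4 and 26.4 in Ly6Clo monocytes. The macrophage groups did not overlap, and *Orc1* was lower in eYFP+ cells by a log2 fold change of -2.14 ± 0.58 (SE, adjusted p = 0.0157 by DESeq2 and 0.225 by edgeR). *Orc6*, another subunit of that complex, held 784, 509 and 528 in eYFP+ against 1552, 930 and 1160 in eYFP- macrophages, and the fold change was -1.0 ± 0.30 on the log2 scale (adjusted p = 0.0382 by DESeq2 and 0.178 by edgeR). In monocytes *Orc6* kept to a narrow band, from 442 to 558.5. *Cdc6*, which helps ORC load the MCM ring, spread widely, at 1089, 285 and 548 in eYFP+ and 2978, 1136 and 1488 in eYFP- macrophages. Its macrophage groups did not overlap but the comparison missed the threshold. *Cdt1*, the partner of CDC6 in loading, was also free of overlap, with 591 to 795 in eYFP+ and 1192 to 2115 in eYFP- macrophages. In Ly6Chi monocytes *Cdt1* stood at 1092 to 1363, above all eYFP+ libraries. *Gmnn*, which makes the CDT1 inhibitor geminin, overlapped between the macrophage groups, at 389 to 921 and 704 to 1273.

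The helicase, the largest of the 7 roles, had 6 of 11 genes lower in eYFP+ macrophages by DESeq2 and 1, *Mcm6*, by edgeR. The ring subunits *Mcm2*, *Mcm4*, *Mcm5*, *Mcm6* and *Mcm7* were called by DESeq2, with log2 fold changes from -1.55 to -1.09, and *Mcm3* was not, at 2617.5 to 3248.5 in eYFP+ and 4460 to 5868.5 in eYFP- macrophages. *Mcm5* stood at 1965, 1736 and 1619 in eYFP+ and 4638, 3692 and 3884 in eYFP- macrophages. In monocytes *Mcm5* held 2509, 2504 and 2155 in Ly6Chi and 1733, 1404 and 2182 in Ly6Clo libraries. The macrophage groups did not overlap for *Mcm5*, with a log2 fold change of -1.20 ± 0.25 (adjusted p = 2.51e-04 by DESeq2 and 0.0511 by edgeR). *Mcm7* gave much the same picture, at 1623, 1388 and 1361 against 4105, 3106 and 3516 (-1.29 ± 0.27, adjusted p = 2.95e-04 by DESeq2 and 0.0511 by edgeR). *Mcm6* (ENSMUSG00000026355) had the highest level per length of the ring in eYFP- macrophages, a mean of 98.5 TPM against 33.6 in eYFP+ macrophages. In normalised counts it stood at 10675, 6426 and 7776 in eYFP- and 2448, 2963 and 3096 in eYFP+ macrophages. The log2 fold change of *Mcm6* was -1.55 ± 0.33 (adjusted p = 4.20e-04 by DESeq2 and 0.0392 by edgeR). For *Mcm6*, Ly6Clo replicate 2 stood high at 5405, with 2716 and 3888 in the other libraries of its group.

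The factors that join the ring at firing split. *Cdc45*, which binds the ring to make it an active helicase, was lower in eYFP+ macrophages, at 277, 229 and 250 against 660, 645 and 726 (log2 fold change -1.43 ± 0.42, adjusted p = 0.0334 by DESeq2 and 0.214 by edgeR). Its Ly6Chi level, 492 to 703, reached that of the eYFP- macrophages, while Ly6Clo libraries held 125 to 401. The GINS subunits *Gins1*, *Gins2* and *Gins3* had log2 fold changes of -0.71 to -0.39 between the macrophage groups, overlapped there and were not called. *Gins2* was lowest in Ly6Chi monocytes, at 142, 164 and 114, against 331 to 601 in eYFP+ macrophages. *Gins3* went another way, highest in Ly6Clo monocytes at 574, 760 and 595 and at 269 to 397 in eYFP+ macrophages. *Mcm10*, a scaffold of the firing step, stood at 168 to 200 in eYFP+ and 458 to 628 in eYFP- macrophages, without overlap and without a call. Its Ly6Clo libraries held 142, 0 and 131, and they enter the fit of all 12 libraries. The part of that 0 in the missing call was not tested.

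Polymerases, clamp and loader gave 2 calls of 9 genes between the macrophage groups by DESeq2 and 0 by edgeR, where 4 had an unadjusted p under 0.05. *Prim1*, the primase that starts each new strand, stood at 573, 285 and 288 in eYFP+ and 1159, 623 and 993 in eYFP- macrophages. The groups did not overlap, and the log2 fold change was -1.28 ± 0.38 (adjusted p = 0.0433 by DESeq2 and 0.216 by edgeR). In monocytes *Prim1* held 366, 323 and 335 in Ly6Chi and 373, 242.5 and 354.5 in Ly6Clo libraries, all below the eYFP- libraries. *Rfc5*, a subunit of the complex that loads the clamp, stood at 1010, 654 and 686 against 1869, 1325 and 1423 (-0.97 ± 0.28, adjusted p = 0.0332 by DESeq2 and 0.154 by edgeR). Its Ly6Chi level was 810 to 971 and its Ly6Clo level 798 to 1072, within or above the eYFP+ range. *Pcna*, the sliding clamp itself and a common marker of dividing cells, overlapped: 1210.5, 833 and 668 in eYFP+ and 1624, 921 and 1299 in eYFP- macrophages. The catalytic subunit *Pold1* did not overlap, at 820 to 1388.5 against 2116 to 2586, and missed the threshold. *Pola1*, the polymerase that extends primers, held 376, 981 and 474 in eYFP- macrophages and overlapped the eYFP+ libraries at 389 to 530. *Pole*, *Rfc3*, *Rfc4* and *Rpa2*, the last a subunit of the single-strand binding protein, overlapped as well. *Rfc4* stood at 297.5 to 1100 in eYFP+ and 678 to 1950 in eYFP- macrophages, *Rpa2* at 647.5 to 1498 and 1238 to 2803, and *Rfc3* at 650 to 1013 and 724.5 to 1175. *Pole* was low throughout, at 74.8 to 128 and 87.0 to 472. On the lagging strand, *Fen1*, which trims primer flaps, and *Lig1*, which seals the nicks, were free of overlap but not called. *Fen1* stood at 171 to 259 in eYFP+ and 279 to 476 in eYFP- macrophages. *Lig1* stood at 735 to 1105.5 in eYFP+ and 1650 to 2288 in eYFP- macrophages.

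Nucleotide supply held the largest log2 fold change of the 38 genes between the macrophage groups, that of *Dut*, and 3 of 5 of its genes were lower in eYFP+ macrophages by DESeq2 and 1 by edgeR. *Dut* (ENSMUSG00000027203), which removes dUTP so that uracil stays out of DNA, held 307, 383 and 362 normalised counts in eYFP+ and 2380, 1425 and 1833 in eYFP- macrophages. In monocytes it held 665, 616 and 570 in Ly6Chi and 285, 379 and 479.5 in Ly6Clo libraries. The eYFP- libraries stood clear of all others, and the log2 fold change between the macrophage groups was -2.42 ± 0.30 (adjusted p = 3.74e-12 by DESeq2 and 0.00501 by edgeR). *Rrm1*, the large subunit of ribonucleotide reductase, stood at 3012, 2035 and 2195 in eYFP+ and 6792, 4405 and 4623 in eYFP- macrophages (-1.13 ± 0.31, adjusted p = 0.0156 by DESeq2 and 0.108 by edgeR). *Tyms*, thymidylate synthase, held 782, 276.5 and 302 against 1932, 997 and 1522 (-1.71 ± 0.51, adjusted p = 0.0409 by DESeq2 and 0.212 by edgeR). *Rrm2*, the S phase subunit of the reductase, had the highest level per length of the 38 genes, with a mean of 209 TPM in eYFP- macrophages against 53.6 in eYFP+ macrophages. Its libraries spread widely, at 4936, 872.5 and 1426 normalised counts in eYFP+ and 16092, 4336 and 6862 in eYFP- macrophages. These *Rrm2* groups overlapped and no call was made. *Tk1*, the salvage kinase for thymidine, did not overlap between the macrophage groups, at 735 to 1110 against 1459 to 2334, and was not called.

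Among genes that copy chromatin and methylation, *Chaf1b*, a subunit of the factor that places histones on new DNA, was the 1 of 3 lower in eYFP+ macrophages by DESeq2, with 0 by edgeR, where 2 had an unadjusted p under 0.05. It stood at 414, 307 and 292 against 1714, 797 and 1026, a log2 fold change of -1.80 ± 0.45 (adjusted p = 0.00523 by DESeq2 and 0.0983 by edgeR). Its Ly6Chi libraries held 389, 334 and 264, and Ly6Clo libraries 444, 1001 and 377, with replicate 2 far above the others. *Uhrf1*, which brings the maintenance methyltransferase to new DNA, stood at 567, 432 and 619 against 2068.5, 1771 and 1727 without a call. Its Ly6Chi libraries held 691 to 943, and Ly6Clo libraries 576, 0 and 393, which also enter the fit of all 12 libraries. Whether that 0 kept *Uhrf1* from a call was not tested. *Chaf1a* was also free of overlap, with 93.7, 364 and 415 in eYFP+ and 431, 668 and 1012 in eYFP- macrophages.

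Of the 3 genes of S phase entry, 1 was lower in eYFP+ macrophages by DESeq2 and 0 by edgeR, where 2 had an unadjusted p under 0.05. *Ccne1*, cyclin E1, stood at 233, 321 and 478 in eYFP+ and 2518, 853 and 1343 in eYFP- macrophages. The groups did not overlap, and the log2 fold change was -2.19 ± 0.51 (adjusted p = 0.00197 by DESeq2 and 0.0937 by edgeR). *Ccne1* stood at 349, 250 and 143 in Ly6Chi and 90.0, 147 and 71.1 in Ly6Clo libraries, below all eYFP- libraries. *Ccne2*, cyclin E2, overlapped between the macrophage groups, since its eYFP+ replicate 1 stood at 869 against 208 and 204 in the others, with 740 to 2013 in eYFP- macrophages. *E2f1*, the activator of many of these genes, was the single gene of the 38 with a positive value, at 1294, 970 and 816 in eYFP+ and 1032, 722 and 818 in eYFP- macrophages. Its log2 fold change of 0.26, given after its value was seen, ran from 0.05 to 0.42 over all settings. In Ly6Chi monocytes *E2f1* stood at 827 to 1088 and in Ly6Clo monocytes at 526 to 1061. It overlapped between groups in all 6 comparisons and was called in none by DESeq2.

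Against monocytes, the eYFP- macrophages were higher. DESeq2 called 25 of 38 genes higher and 0 lower than in Ly6Chi monocytes, where 16.3% of all genes were called higher, with a median log2 fold change of 1.34 against 0.08 over all genes. Against Ly6Clo monocytes it called 24 of 38 higher and 0 lower, where 15.4% of all genes were called higher, with a median of 1.32 against 0.05. With edgeR the counts were 24 higher against Ly6Chi (13.5% of all genes higher) and 19 higher against Ly6Clo monocytes, where 2495 of 19189 genes were higher and 21.9% were called in either direction. Both comparisons share the eYFP- libraries with the comparison of the macrophage groups. All 5 nucleotide genes were higher in both. The largest differences were *Ccne1*, at 2.67 ± 0.51 on the log2 scale over Ly6Chi (adjusted p = 2.05e-06) and 3.94 ± 0.51 over Ly6Clo monocytes (adjusted p = 6.29e-13), and *Orc1*, at 2.57 ± 0.58 (adjusted p = 1.05e-04) and 3.29 ± 0.59 (adjusted p = 4.22e-07). *Rfc5* against Ly6Chi, and *Mcm10*, *Gins1*, *Gins2*, *Uhrf1* and *Ccne2* against Ly6Clo monocytes, were called by DESeq2 and missed edgeR's threshold.

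Few of the genes were called between eYFP+ macrophages and monocytes, some in each direction. Against Ly6Chi monocytes 5 of 38 genes were called, where 24.5% of all genes were called, and edgeR called 4 (24.6% of all genes). *Gins2* (log2 fold change 1.66 ± 0.42, adjusted p = 5.39e-04), *Gins1* (1.04 ± 0.40, adjusted p = 0.0384) and *Tk1* (0.99 ± 0.34, adjusted p = 0.0175) were higher in eYFP+ macrophages. *Cdc45* (-1.27 ± 0.42, adjusted p = 0.0119) and *Dut* (-0.81 ± 0.30, adjusted p = 0.0317) were lower. The median over the 38 genes was 0.18, and over all genes 0.09. For the 33 genes that were not called, the 95% interval reached a median of 0.84 log2 units either side, and for 11 of them it lay wholly within 1 unit of 0, and the intervals of the others reached past a 2-fold difference. Leaving out 1 library gave 10 calls without Ly6Clo replicate 2, 1 without Ly6Chi replicate 2, and 2 each without Ly6Chi replicate 1 or 3 or eYFP+ replicate 1 or 2.

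Against Ly6Clo monocytes both tools called 3 of 38 genes higher and 2 lower in eYFP+ macrophages. Of all genes DESeq2 called 15.7% higher and 12.2% lower, and edgeR 12.8% and 10.5%. *Mcm2* (1.34 ± 0.41, adjusted p = 0.00527), *Ccne1* (1.75 ± 0.51, adjusted p = 0.00388) and *Tk1* (0.99 ± 0.34, adjusted p = 0.0168) were higher in eYFP+ macrophages. *Mcm4* (-0.74 ± 0.26, adjusted p = 0.0196) and *Gins3* (-1.03 ± 0.32, adjusted p = 0.00622) were lower. The median over the 38 genes was 0.25, and over all genes 0.08. There were 3 calls without eYFP+ replicate 2 and 2 without eYFP+ replicate 3. The ring subunits parted in this comparison, with *Mcm4* at 1637, 1555 and 1528 in eYFP+ macrophages and 2259, 3254 and 2381 in Ly6Clo monocytes, while *Mcm2* held 2452, 2201 and 2066.5 against 1103, 442 and 1102.

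Between the monocyte groups 1 of 38 genes was called in each direction, 2 in all, where 8.62% of all genes were called. *Cdc45* was higher in Ly6Chi monocytes (1.39 ± 0.42, adjusted p = 0.0149) and *Gins2* lower (-1.22 ± 0.42, adjusted p = 0.0415). With edgeR 0 of 38 were called, where it called 4.32% of all genes, and 9 had an unadjusted p under 0.05, where 19.1% of all genes did. The median log2 fold change was -0.03. Single libraries moved these few calls, with 4 without Ly6Clo replicate 1, 0 without Ly6Chi replicate 1 or 2, and 1 without Ly6Chi replicate 3 or any 1 eYFP- library or eYFP+ replicate 2 or 3.

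**Figure D4:**
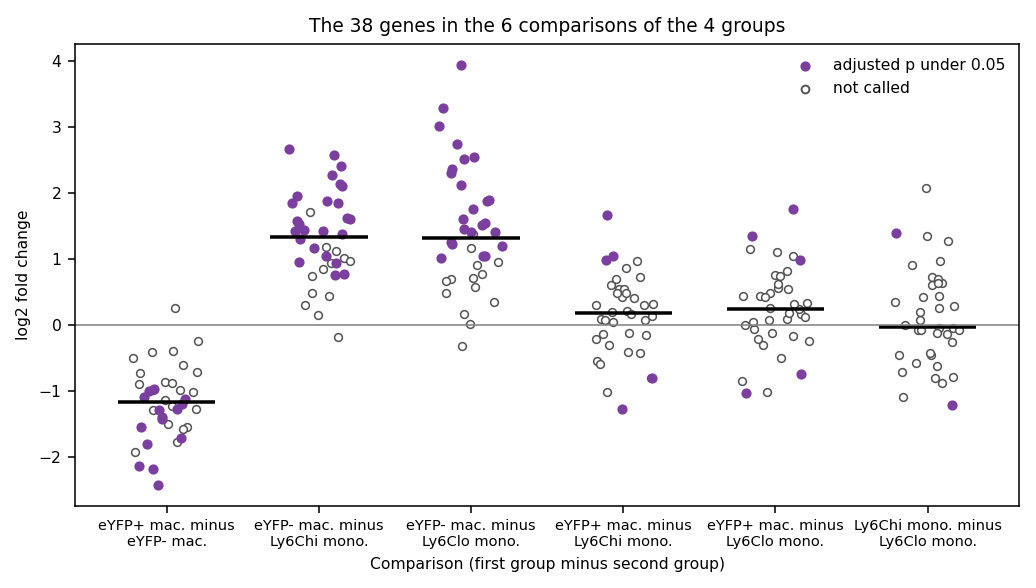
Log2 fold change of the 38 genes (points) in each of the 6 comparisons, first group minus second, with the median as a bar and DESeq2 calls filled. The medians are -1.17, 1.34, 1.32, 0.18, 0.25 and -0.03 from left to right. The 3 comparisons with eYFP- macrophages lie away from 0 and the other 3 straddle it.

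The other lists were also chosen with results of these data known, so their counts are no independent evidence. Of 61 further replication genes 7 were called lower in eYFP+ than in eYFP- macrophages and 0 higher, 1 of them by edgeR, with a median log2 fold change of -0.73. *Hells*, a chromatin remodeller, held 70.0, 147 and 166 in eYFP+ and 671, 547 and 524 in eYFP- macrophages (adjusted p = 0.00104). *Ccna2*, the cyclin of S phase and G2, stood at 534, 543 and 446 against 2976, 2036 and 2888 (adjusted p = 0.00380). *E2f2* was lower in eYFP+ macrophages too, at 213 to 384 against 1142.5 to 1339 (adjusted p = 0.00152), but it was highest in Ly6Chi monocytes at 6311 to 7112. *Dna2*, a nuclease of lagging-strand processing, also peaked in Ly6Chi monocytes, at 8208 to 9468 against 112 to 1022 in macrophages, and was chosen for mention after its values were seen.

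Of 30 G2 and mitosis genes 14 were called lower in eYFP+ than in eYFP- macrophages by DESeq2 and 3 by edgeR, with a median of -1.54 and all 30 values negative. *Ccnb2*, a mitotic cyclin, stood at 591, 347 and 328 against 3817, 1436 and 2406 (-2.60 ± 0.50, adjusted p = 7.07e-05), and *Nek2*, *Aurkb* and *Cks2* were also called. *Mki67* held 868, 323 and 549 against 1774.5, 1867 and 1218, and *Top2a* and *Cdk1* 667 to 982 against 1997 to 2812 and 543 to 1129 against 1186 to 1900. None of the last 3 passed the threshold. Set against monocytes the lists parted, since the summed TPM of the mitosis genes in eYFP+ macrophages was 0.57 times that in Ly6Chi monocytes and that of the 38 replication genes 1.18 times. This contrast between lists was not tested.

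Among genes that act before or outside S phase, few passed the test between the macrophage groups. Of 6 G1 cyclins and partners 0 were called by DESeq2 and 0 by edgeR, where 3 had an unadjusted p under 0.05. All 6 were nonetheless lower in eYFP+ macrophages, with a median log2 fold change of -0.82. That median was 0.03 in each of the lists that follow, the brakes and the dNTP enzymes. *Myc*, a transcription factor of growth, had a DESeq2 adjusted p of 0.0539. *Ccnd3*, cyclin D3, stood at 1250, 3718 and 4117 in eYFP+ and 15270, 7185 and 9455 in eYFP- macrophages (adjusted p = 0.0564). Of 21 brakes on the cycle 1 was called by DESeq2, the CDK4 inhibitor *Cdkn2d*, lower in eYFP+ macrophages at 658, 410 and 568 against 1996, 1072.5 and 1759 (adjusted p = 0.00232), and 0 by edgeR, where 2 had an unadjusted p under 0.05. *Rb1*, the pocket protein that holds E2F in check, stood at 604 to 790 and 404 to 723. Of 8 enzymes that set the dNTP pool outside S phase 0 were called by DESeq2 or edgeR, and 1 had an unadjusted edgeR p under 0.05. *Samhd1*, which destroys dNTPs in resting myeloid cells, held 6562 to 7156 in eYFP+ and 5961.5 to 6747 in eYFP- macrophages, while monocytes held 22807 to 38631. The non-S phase reductase subunit *Rrm2b* stood at 448 to 714 and 196 to 573 in the macrophage groups.

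Some markers of other bone marrow cells were also lower in eYFP+ than in eYFP- macrophages. Of 16 erythroid markers 4 were called lower in eYFP+ than in eYFP- macrophages by DESeq2 and 0 by edgeR, where 11 had an unadjusted p under 0.05, and their summed TPM was 9209 to 15120.5 against 23271 to 37174. *Klf1*, the erythroid master regulator, held 997, 519 and 884 against 7979, 2437 and 4426 (adjusted p = 0.00187). *Car1*, *Slc4a1* and *Car2* were the other 3 called, and all 16 markers had negative log2 fold changes. In monocytes the erythroid sum was 400.2 to 1450.3 TPM. The erythroid sum of the eYFP+ macrophages was 18.16 times that of Ly6Chi monocytes, and the sum of the 38 genes 1.18 times. For the eYFP- macrophages these ratios to Ly6Chi monocytes were 48.11 and 2.78. Between the macrophage groups, the eYFP- mean was 2.65 times the eYFP+ mean for the erythroid sum and 2.35 times for the 38 genes. Of 10 stem and progenitor markers 5 were lower by DESeq2 and 1 by edgeR, with a sum of 6.59 to 13.5 against 52.8 to 114 TPM. *Kit* held 71.0, 171 and 221 against 183, 1738 and 1079. *Flt3* and *Erg* were among those called, and *Cd34* held 9.26, 152 and 54.0 against 1175, 1970 and 1983. Of 11 neutrophil precursor markers 6 were lower by DESeq2 and 1 by edgeR, with a sum of 29.7 to 74.8 against 229 to 1442 TPM. *Prtn3*, *Cebpe* and *Ngp* were among those called, and *Mpo* stood at 396, 1809 and 226 against 7443, 20146 and 27039.

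The remaining cell types gave 0 to 3 calls a list by DESeq2. Over all tested genes, DESeq2 called 1.88% lower in eYFP+ than in eYFP- macrophages and edgeR 0.328%. By DESeq2 3 of 13 monocyte markers (*Spn* and *Ccr2* among them) were lower in eYFP+ macrophages and 1 by edgeR. The sums of all 13 were 776 to 1296 against 780 to 2148.5 TPM, with *Nr4a1* at 853 to 1486 against 878 to 1348 normalised counts. Of the 11 with an adjusted p 9 had negative log2 fold changes and 2 positive ones, with a median of -1.68. T and NK cell markers gave 2 of 10 (*Nkg7*, *Lck*) by DESeq2 and 1 by edgeR, with sums of 9.59 to 24.3 against 64.1 to 131 TPM, while *Cd3e* stayed between 2.74 and 15.5 normalised counts. Of 7 megakaryocyte markers 1 was lower by DESeq2 (*Itga2b*) and 0 by edgeR, where 2 had an unadjusted p under 0.05. The sums of all 7 overlapped, at 122 to 201 against 143 to 197 TPM, with *Pf4* at 1264 to 2467 against 1358 to 1671 normalised counts. Yet of the 6 with an adjusted p 5 had negative log2 fold changes and 1 a positive one, with a median of -1.73. For 5 of 7 all eYFP+ libraries lay below all eYFP- libraries, against 8.50% of the genes with an adjusted p. Of 7 B cell markers 0 were called by DESeq2 or edgeR and 0 had an unadjusted edgeR p under 0.05, with sums of 471 to 702 against 462 to 585 TPM, and *Cd79a* stood at 2.86 to 12.6 and 0.837 to 114.5 normalised counts. Of 14 macrophage markers 0 were called by DESeq2 or edgeR and 0 had an unadjusted edgeR p under 0.05. Their sums did not overlap, at 55933 to 67872 TPM in eYFP+ and 51420 to 52727 in eYFP- macrophages. Of the 14 log2 fold changes 13 were positive, with a median of 0.43. *Mrc1* stood at 105872 to 177585 against 38647 to 118137 normalised counts and *Adgre1* at 80032 to 139025 against 66789 to 80240. *Erg* was at 0 in eYFP+ replicate 1 and *Cebpe* in eYFP+ replicate 3. The part of any of these markers in the levels of the replication genes was not tested.

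**Figure D5:**
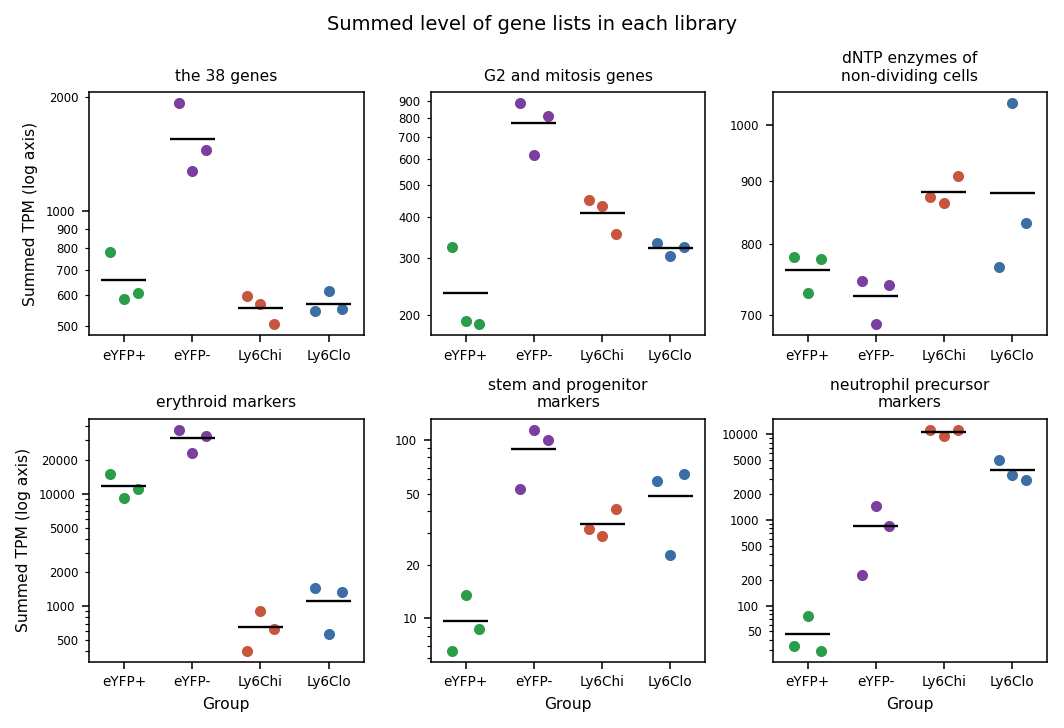
Summed TPM (log axis) of the 38 genes and 5 other lists in each library, with 1 point a library and a bar at the group mean. The 38 genes sum to 1274 to 1922 in eYFP- macrophages and 504 to 782 elsewhere. The erythroid markers are lower in eYFP+ than in eYFP- macrophages, yet far above monocytes in both.

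Replicate 1 of both macrophage groups ran high in the replication genes. It was the highest library of its group for 28 of 38 genes in eYFP+ and 32 of 38 in eYFP- macrophages. Its median log2 excess over the mean of the other 2 libraries was 0.50 and 0.54, against -0.12 and -0.09 over all genes with an adjusted p. *Rrm2*, *Cdc6*, *Rfc4* and *Ccne2* showed it in both groups, and the erythroid sum was also highest in replicate 1 of each group, at 15120.5 and 37174 TPM. Other lists went the other way. The stem and progenitor sum was lowest in replicate 1 of each group, at 6.59 TPM in eYFP+ and 52.8 in eYFP- macrophages. So was the T and NK cell sum, at 9.59 and 64.1 TPM. The neutrophil precursor sum was lowest in replicate 1 of the eYFP- macrophages, at 229 TPM, but not of the eYFP+ macrophages. Without replicate 1 of both macrophage groups, a setting chosen after seeing the data, 9 of 38 genes were called lower, 37 of 38 values were negative and the median was -1.16. In Ly6Clo replicate 2 the 38 genes divided by GC content. The 19 genes with GC-rich transcripts had a median log2 ratio of -0.47 to the other 2 libraries and the 19 GC-poor ones of 0.52. Over all genes with a mean of at least 50 normalised counts the medians were -0.65 and 0.26, with the split at 49.6% GC. In eYFP+ replicate 1 they were -0.28 and 0.19 over those genes, and 0.24 and 0.57 for the 38 genes. In eYFP- replicate 1 they were 0.01 and -0.02, and 0.42 and 0.59 for the 38 genes.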

How the data were processed

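The authors aligned paired reads of amplified full-length cDNA to GRCm39 with segemehl and counted unambiguous pairs on exons with featureCounts, and deposited raw counts per gene. Strand was not stated. They also deposited TPM, used here only for levels between genes and summed lists, and variance-stabilised values, not used here. The 12 libraries were fitted together in DESeq2 1.42.0 (R 4.3.3) on the counts, with group as the only term, median-of-ratios size factors, Wald tests and Benjamini-Hochberg adjustment over all genes, called at an adjusted p under 0.05 with independent filtering. Normalised counts are counts divided by size factors. EdgeR 4.0.16 (quasi-likelihood, TMM) is given beside the counts of calls per comparison and, between the macrophage groups, per list, and limma 3.58.1 was run on log2(TPM + 1) and log2(TPM + 0.1) for genes with at least 0.5 TPM in 3 libraries. All 38 members had an adjusted p in each of the 6 comparisons. Gene symbols were matched to 52029 of 56953 IDs, and 14020 genes had no count. The listed genes *Lin54* and *Ahsp* had no match and were left out.

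The members and lists were chosen with earlier results of these data known, so no p was adjusted over a list. Every member is accounted for, with fold change, SE and adjusted p only where DESeq2 called it, up to 3 members a role in every library, and up to 4 genes of lowest adjusted p from each other list besides fixed examples. Both tests were checked on simulated data, where signs and sizes of change came back. There DESeq2's calls included many unchanged genes, while edgeR called no unchanged gene and recovered fewer of the changed ones. Intervals cover the spread between libraries, and GC content is that of the longest GENCODE transcript. Alternatives changed the tool, scaling, filters, unit, block, fold minimum and libraries. Some genes of the other lists are not reported here by name.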

Additional observations from a re-analysis of the deposited data

How the results depend on the processing

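In eYFP+ against eYFP- macrophages every alternative left the calls in 1 direction, lower, but moved their number from 15. It was 2 with edgeR, 9 without independent filtering, 9 with limma on log2(TPM + 0.1), 31 without eYFP+ replicate 1 and Ly6Clo replicate 2 together, and 9 without replicate 1 of both macrophage groups, chosen after seeing the data. Leaving out 1 library gave 4 to 24. Between the monocyte groups the 2 calls became 0 with edgeR or with the 6 libraries of the comparison alone, 1 without independent filtering or with limma on log2(TPM + 0.1), and 6 without eYFP+ replicate 1 and Ly6Clo replicate 2, and ran from 0 to 4 with 1 library left out. In eYFP+ macrophages against Ly6Chi monocytes the 5 calls became 3 without independent filtering, 3 at a fold of at least 2, 10 without eYFP+ replicate 1 and Ly6Clo replicate 2 and 2 without both macrophage replicates 1, and ran from 1 to 10. Against Ly6Clo monocytes the 5 became 1 with the 6 libraries alone and 3 at a fold of at least 2, and ran from 2 to 7. The counts for eYFP- macrophages stayed within 1.5 times, at 19 to 29 against Ly6Chi and 18 to 27 against Ly6Clo monocytes with 1 library left out. The cause was not tested. Of the single calls, 275 of 390 gene and setting pairs kept the threshold in the macrophage comparison, 615 of 650 and 560 of 624 in those of eYFP- macrophages with monocytes, and 0 changed sign. Scaling by total counts moved the median of all genes by -0.11 in eYFP+ macrophages against eYFP- macrophages and against Ly6Clo monocytes.

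Same-numbered libraries deviated together with correlations of 0.297, 0.169 and 0.0589 in the macrophage groups and 0.111, 0.0435 and 0.0023 in the monocyte groups, and 4 of 6 libraries correlated best with their own number in each. The column names number the libraries replicate by replicate across the groups, without saying what the same-numbered libraries share. Since not every correlation passed 0.1 and no label names a shared animal, litter or day, the replicate numbers were not taken as pairs. With the replicate block DESeq2 called 16 genes in the macrophage comparison, 1 between the monocyte groups and 3 in eYFP+ macrophages against Ly6Chi monocytes, and edgeR called 1, 0 and 2.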
